A study of Arabidopsis thaliana with 7 samples.

Results

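The values of 5 Arabidopsis thaliana genes known for responding to the hormone abscisic acid (ABA) and to drought were followed over 7 seedling arrays, each gene through 1 of the 22746 probe sets. These 5 are HIS1-3 (AT2G18050), SAG29 (AT5G13170), AT2G37870, RAB18 (AT5G66400) and RD29B (AT5G52300), chosen by name with earlier results on these arrays in view, which included their differences between the mutants and the wild type. A table of platform annotation pairs 1 probe set each with HIS1-3, SAG29 and AT2G37870. It gives no gene for the probe sets of the other 2, so the names RAB18 and RD29B rest on the list by which they were chosen. No plant was given ABA or dried, and "ABA- and drought-responsive" therefore states what the genes are known for and not a treatment of these seedlings.

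Total RNA of whole seedlings was measured on 7 one-colour arrays. The wild type was Col, Columbia, with 3 arrays. The mutant soc1-101D (3 arrays) carries a gain-of-function allele of the flowering gene SOC1 in Col and flowers early, and soc1-2 (1 array) is a late-flowering knock-out of SOC1 in Col. All were grown for 7 days after germination at 21 °C with 16 h of light and 8 h of dark, and the labels name no other treatment. The labels number the experiments 1, 2 and 3, with a Col and a soc1-101D array in each and the soc1-2 array in experiment 3, and they name Col of the same experiment as the baseline. They do not say how many plants were pooled or whether the experiments were separate plantings, and the spread behind each p-value may therefore be technical. In RNA from whole seedlings, fewer cells of a type and less RNA per cell cannot be told apart. No probe set was paired with SOC1 itself, so the genotypes rest on the labels.

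In a plant that loses water, ABA accumulates and binds soluble receptors, which then hold back PP2C phosphatases. SnRK2 kinases are thereby released and activate bZIP transcription factors, which switch on genes through ABA-responsive elements in their promoters. Many of the products protect cells from drying: dehydrins and other late embryogenesis abundant (LEA) proteins are small, hydrophilic and unstructured. RAB18 is a dehydrin, and RD29B encodes a hydrophilic protein that serves as a common marker of ABA signalling. HIS1-3 is the drought-inducible linker histone, SAG29 is the sugar transporter SWEET15, induced in senescing leaves and by osmotic stress, and AT2G37870 belongs to the lipid transfer and 2S albumin protein superfamily.

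Signals below are the deposited intensities after each array was scaled to a common median of 192.7. Differences are on the log2(signal + 19.3) scale, and the pseudocount of 19.3, 0.1 times that median, understates changes of dim genes. Precision is limited by the small number of arrays. Across the 13648 tested probe sets, r was 0.954 to 0.983 between arrays from 1 experiment and 0.824 to 0.929 between arrays from separate experiments. Green leaf markers (3 probe sets) had a summed signal of 56140 to 95200 in Col, 68620 to 90200 in soc1-101D and 56480 in soc1-2, and root markers (3 probe sets) one of 16810 to 22950, 13710 to 22540 and 20110. Markers of seeds and flowers had no named probe set here.

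The first question was how the dehydrin and LEA-type genes stood in each seedling sample. The RAB18 probe set had a signal of 272, 4170 and 231 in Col of experiments 1, 2 and 3. In soc1-101D it was 212, 630.5 and 217, and on the soc1-2 array 349.5. Col of experiment 2 stood apart from all other arrays, 15.3 times the signal of Col in experiment 1 and 6.61 times that of soc1-101D grown in the same experiment. In experiments 1 and 3 the RAB18 signals of Col and soc1-101D lay close together.

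The RD29B probe set was dim. Its signal was 107.5, 413 and 59.3 in Col of experiments 1, 2 and 3, and 146.5, 7.88 and 50.7 in soc1-101D. On the soc1-2 array it was 75.6. Col of experiment 2 was again the highest of the 7 arrays, but soc1-101D of that experiment was the lowest and lay under the pseudocount. RD29B was among the dimmest 40% of probe sets, which were not tested.

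The nuclear protein gene HIS1-3 resembled RAB18. Its signal was 368, 2344 and 126 in Col of experiments 1, 2 and 3, and 144, 477 and 111 in soc1-101D. The soc1-2 array had 222. Linker histones bind the DNA between nucleosomes, and HIS1-3 is the member of that family that ABA and drought induce. In both genotypes its highest array was that of experiment 2, and the Col and soc1-101D groups overlapped.

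AT2G37870 had a signal of 256, 690 and 128 in Col and 173, 272 and 53.9 in soc1-101D of experiments 1, 2 and 3. On the soc1-2 array it was 221. In Col its spread between experiments was narrower than that of HIS1-3 and RAB18. The highest Col array was 5.38 times the lowest, against 18.6 and 18.1 times. In soc1-101D it was not narrower: its log2 range was 1.99, against 1.93 for HIS1-3 and 1.49 for RAB18. The order of the experiments was 2, 1 and 3 in both genotypes.

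SAG29 took another course. Its signal was 1116, 332.5 and 40.4 in Col of experiments 1, 2 and 3, and 652, 120 and 6.90 in soc1-101D. On the soc1-2 array it was 79.0. Experiment 1, not 2, held its highest arrays, and its Col signal in experiment 1 was 27.6 times that in experiment 3. The soc1-101D value of experiment 3 lay under the pseudocount.

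**Figure D1:**
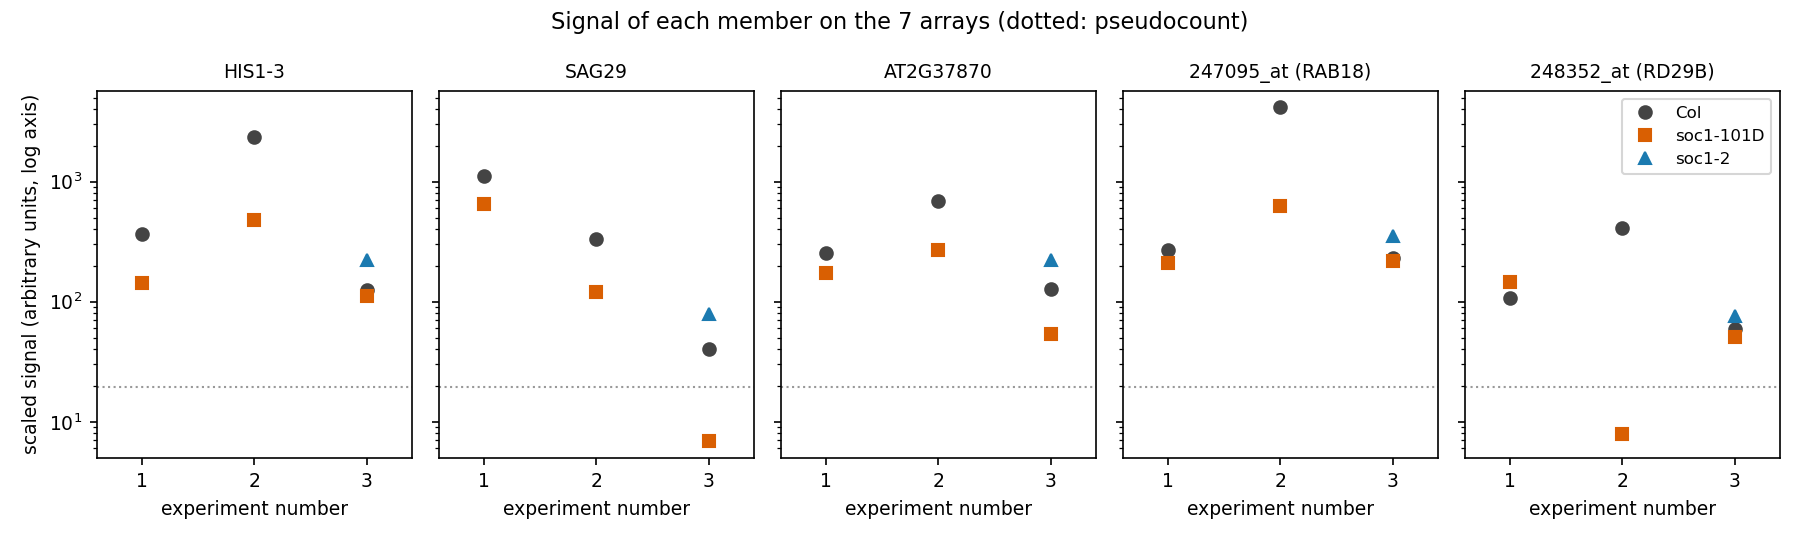
Scaled signal (arbitrary units, log axis) of each of the 5 genes against the experiment number; each point is 1 array, the symbol gives the genotype and the dotted line is the pseudocount of 19.3. Col of experiment 2 is the highest array for HIS1-3, AT2G37870, RAB18 and RD29B, while SAG29 is highest in Col of experiment 1.

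Col of experiment 2 was thus the highest array for 4 of the 5 genes. Among the 4 tested it was the highest for 3, and this held for 15.1% of all tested probe sets. For the same 3, HIS1-3, AT2G37870 and RAB18, it stood at least 2-fold above each other array, as it did for 36 of 13648 probe sets (0.264%). A high Col array also enters the differences on which members were picked, and these shares are therefore a description. The summed leaf marker signal was likewise highest on the arrays of experiment 2, 95200 in Col and 90200 in soc1-101D, as was that of the root markers, 22950 and 22540. Single markers did not all follow the sums. LHCB4.1, LHCB4.2, PYK10 and EXPA18 were highest in experiment 2. RCA was highest in experiment 1 (30200 in Col, 30390 in soc1-101D) and EXPA7 on soc1-2 (249.1). PYK10 made up most of the root sum, with 22020 in Col of experiment 2. The part of these markers in the levels above was not tested.

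The comparison of experiment 2 with experiment 1 holds both genotypes in equal number, so a genotype difference of equal size in both experiments cancels in it. It uses the same arrays as the differences with which the members were chosen, Col of experiment 2 among them, and its p-values are therefore not independent of the choice. HIS1-3 rose 4.32-fold from experiment 1 to 2 (log2 2.11 ± 0.42, limma SE, 2 arrays each, limma adjusted p = 0.00822). RAB18 rose 6.36-fold (log2 2.67 ± 0.55, limma adjusted p = 0.00955) and AT2G37870 1.98-fold (log2 0.98 ± 0.22, limma adjusted p = 0.0139). SAG29 fell by 1.98 on the log2 scale (± 0.20, limma adjusted p = 0.000631). Each of these directions held in both genotypes, but the sizes differed, and the values above are averages over both. HIS1-3 rose by a log2 of 2.61 in Col and 1.60 in soc1-101D, and RAB18 by 3.85 and 1.49. AT2G37870 rose by 1.365 and 0.60, and SAG29 changed by −1.69 and −2.27.

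Of the 4 tested genes, 3 were therefore called higher and 1 lower in experiment 2. Such calls were common on these arrays, at 16.6% of all tested probe sets for higher and 16.0% for lower. The sizes lay toward the edges of the distribution: 68 of the 13648 probe sets had a larger positive difference than RAB18, 151 than HIS1-3 and 1082 than AT2G37870, and 186 lay below SAG29. In the fit to the 6 arrays other than Col of experiment 2, the difference was 1.33 for HIS1-3 and 1.43 for RAB18. That fit keeps 1 array of experiment 2, which was also in view when the members were chosen, so only the sizes are given. The calls and ranks above likewise describe genes chosen with these arrays in view and are no independent evidence.

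The calls of AT2G37870 and RAB18 depend on the filter and on single arrays, and that of HIS1-3 on the filter and the genotype term. The alternatives below are not all distinct, and none undoes the choice of the members with these arrays in view. Passing in them is therefore a description. Leaving out soc1-2 could not alter this contrast, and leaving out Col or soc1-101D of experiment 3 gave the same result for either array. HIS1-3 differed by 1.33 to 2.88 with each array left out in turn. AT2G37870 did not pass without Col of experiment 2 (limma adjusted p = 0.0798) or without Col of experiment 1 (0.103), and RAB18 did not pass without Col of experiment 1 (0.0669). When dim probe sets were kept in, the adjusted p was 0.0763 for HIS1-3, 0.0845 for AT2G37870 and 0.0832 for RAB18. Over 14 alternatives the adjusted p of HIS1-3 ranged from 0.000244 to 0.0763, that of AT2G37870 from 0.00753 to 0.224 and that of RAB18 from 1.06e-05 to 0.0832. SAG29 passed in all 14, with adjusted p from 0.000102 to 0.0474. RD29B, testable only when the filter was loosened, differed by −0.42 (limma adjusted p = 0.832 with no filter), with Col higher by 1.77 and soc1-101D lower by 2.61 in experiment 2. The soc1-101D value rests on a signal under the pseudocount.

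**Figure D2:**
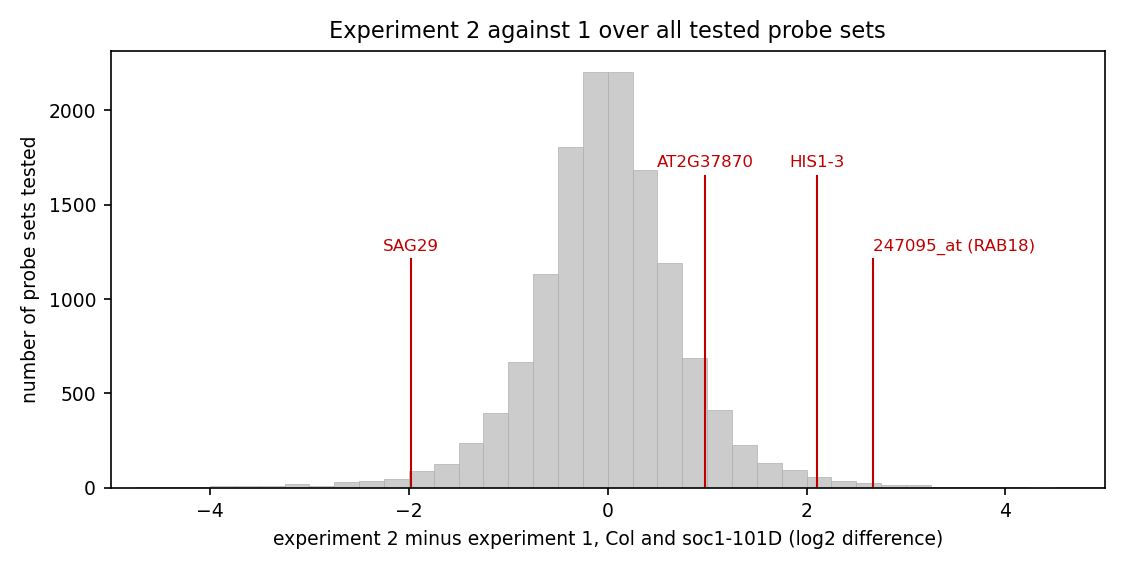
Number of tested probe sets (vertical axis) by their log2 difference of experiment 2 minus experiment 1 over Col and soc1-101D (horizontal axis), with 4 of the 5 genes marked. RAB18 (2.67) and HIS1-3 (2.11) lie in the upper tail, SAG29 (−1.98) in the lower tail and AT2G37870 at 0.98.

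Experiment 3 shares its Col array with the soc1-2 comparison, so its differences are given with no test. From experiment 2 to 3, HIS1-3 was lower by a log2 of −4.03 in Col and −1.93 in soc1-101D. RAB18 was lower by −4.07 and −1.46, AT2G37870 by −2.27 and −1.99 and SAG29 by −2.56 and −2.42. For HIS1-3 and RAB18 the distance was wider in Col, and the SAG29 value of soc1-101D rests on a signal under the pseudocount. Over all tested probe sets, 51.6% differed between the 3 experiments (limma moderated F, adjusted p under 0.05).

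The next comparison was soc1-101D against Col. It helped to choose the members, so the values are a description with no test. HIS1-3 was lower than Col of the same experiment by log2 differences of −1.24, −2.25 and −0.16 in experiments 1, 2 and 3, with a mean of −1.22 ± 1.05 (SD, 3 pairs). The distance was wide in experiments 1 and 2 and near 0 in experiment 3, and without experiment 2 the mean was −0.70.

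SAG29 had differences of −0.76, −1.33 and −1.19, a mean of −1.09 ± 0.30. The last of these rests on a soc1-101D signal under the pseudocount, and the mean was −1.42 with a pseudocount of 0.02 times the median and −0.695 with 0.5 times. AT2G37870 differed by −0.52, −1.29 and −1.01, a mean of −0.94 ± 0.39. For both genes soc1-101D was the lower array of each pair, while the Col and soc1-101D groups overlapped.

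The RAB18 probe set differed by −0.33, −2.69 and −0.08, a mean of −1.04 ± 1.44 whose size comes from experiment 2. Without it the mean was −0.21. RD29B differed by 0.39, −3.99 and −0.17, a mean of −1.26 ± 2.39. The −3.99 rests on a soc1-101D signal of 7.88, under the pseudocount. Without experiment 2 its mean turned to 0.11, and with a pseudocount of 0.5 times the median it was −0.71.

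In all, 4 of the 5 genes were below Col in each of the 3 experiments. These are the 4 tested genes, and 18.3% of all tested probe sets did the same. In the limma fit 74 of 13648 probe sets (0.542%) differed between soc1-101D and Col at an adjusted p under 0.05. Nothing is read from these shares, since the same contrast chose the members.

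On the soc1-2 array all 5 genes were above Col of experiment 3, a difference that was in view when they were chosen. The share of all tested probe sets above Col there was not counted, and their median difference was −0.02. HIS1-3 was higher by a log2 of 0.73, SAG29 by 0.72, AT2G37870 by 0.71, RAB18 by 0.56 and RD29B by 0.27. None reached 2-fold, which 111 of the 13648 tested probe sets (0.813%) did in either direction. With a pseudocount of 0.5 times the median the difference of SAG29 was 0.36. There is 1 soc1-2 array, so these differences have no replicate check.

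For all 5 genes the soc1-2 signal was between the lowest and the highest Col signal. The share of all probe sets that did so was not counted, and nothing is read from this. HIS1-3 on soc1-2 was below Col of experiments 1 and 2 by −0.68 and −3.29, and SAG29 by −3.53 and −1.84. RAB18 on soc1-2 was above Col of experiment 1 by 0.34 and below that of experiment 2 by −3.51. For HIS1-3, SAG29, AT2G37870 and RD29B, soc1-2 was thus higher than Col of experiment 3 and lower than Col of experiments 1 and 2. Against soc1-101D of experiment 3, SAG29 was higher on soc1-2 by 1.91, AT2G37870 by 1.72, HIS1-3 by 0.89, RAB18 by 0.64 and RD29B by 0.44. Both mutants share that Col array as their baseline. The pattern of lower in soc1-101D in all 3 experiments and higher in soc1-2 was shown by the 4 tested genes and by 7.07% of all tested probe sets, and it belongs to how the members were chosen.

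**Figure D3:**
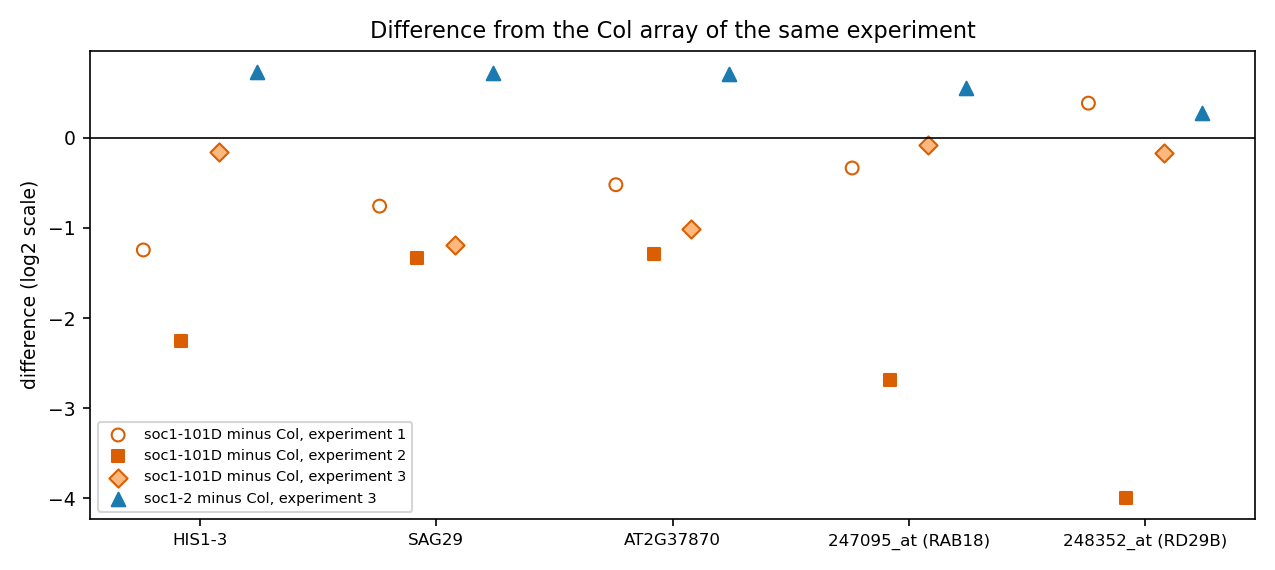
Log2 difference of each of the 5 genes from the Col array of the same experiment; orange symbols are soc1-101D in experiments 1, 2 and 3 and the blue triangle is the single soc1-2 array. The soc1-101D points of SAG29 and AT2G37870 lie between −1.33 and −0.52, whereas those of RAB18 and RD29B are far from 0 in experiment 2 and within 0.39 of it in experiments 1 and 3. The RD29B point of experiment 2 and the SAG29 point of experiment 3 rest on soc1-101D signals under the pseudocount.

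How alike the genes were was measured with Pearson's r of log2 values over the 7 arrays, which share experiments and are no independent points. HIS1-3 and RAB18 had r = 0.956, and r = 0.822 without Col of experiment 2. HIS1-3 and AT2G37870 had r = 0.916, and 0.831 without that array. SAG29 had r = 0.422 with HIS1-3, 0.205 with RAB18 and 0.615 with AT2G37870. RD29B had r = 0.512 with RAB18 over 7 arrays and −0.786 without Col of experiment 2, so 1 array set the sign of that value. The −0.786 in turn includes soc1-101D of experiment 2, where RD29B read 7.88, under the pseudocount, and RAB18 630.5.

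The same measure over the named tested probe sets gave the 3 genes most like each member, picked for high r from 7251 or 7252 candidates. For HIS1-3 they were AT4G33730 (r = 0.983), the jacalin-type lectin gene JAL33 (r = 0.981) and AT5G26260 (r = 0.975). AT5G26260, which encodes a protein with a TRAF-like domain, was also among the 3 most like RAB18 (r = 0.979), with AT1G76590 (r = 0.982) and AT5G04960 (r = 0.979). Without Col of experiment 2, r with HIS1-3 was 0.931 for AT4G33730, 0.928 for JAL33 and 0.895 for AT5G26260. For RAB18 it was then 0.905 for AT5G26260, 0.835 for AT1G76590 and 0.806 for AT5G04960. AT5G26260 read 994, 2894 and 739 in Col of experiments 1, 2 and 3 and 923, 1379 and 756 in soc1-101D, a narrower course with the same order as HIS1-3 in Col.

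For SAG29 the closest were AT5G52660 (r = 0.991), AT3G57020 (r = 0.984) and AT2G05810 (r = 0.981). AT3G57020 read 6738, 3508 and 1141 in Col and 5110, 2124 and 1069 in soc1-101D, stepping down from experiment 1 to 3 as SAG29 did. For AT2G37870 they were the copper amine oxidase gene AT1G31710 (r = 0.988), AT1G05710 (r = 0.981) and ISU1 (r = 0.973), and for RD29B AT3G45750 (r = 0.953), AT4G38090 (r = 0.952) and AT5G48990 (r = 0.921).

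The wider ABA pathway could be followed only in part. Of 76 genes in 4 lists (ABA synthesis and breakdown, receptors with phosphatases and kinases, transcription factors, and other response genes), 6 had a named probe set and 3 were tested, all of them response genes. None of the 3 was called in soc1-101D, where 0.542% of all tested probe sets were, and their median difference was −0.46 against −0.02 over all tested probe sets. All 3 rose from experiment 1 to 2, as 16.6% of all tested probe sets did, with a median of 1.80 against −0.0011 over all tested probe sets.

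The dehydrin gene COR47 read 3246, 12520 and 5416 in Col of experiments 1, 2 and 3, 1889, 6044 and 4619 in soc1-101D, and 7111 on soc1-2. It rose from experiment 1 to 2 by a log2 of 1.80 (limma adjusted p = 0.0014), and its soc1-101D difference was −0.68 (limma adjusted p = 0.21). The dehydrin gene LTI30 read 1200, 3852 and 786 in Col, 777, 2037 and 983 in soc1-101D, and 1033 on soc1-2. It rose by 1.52 from experiment 1 to 2 (limma adjusted p = 0.00704) and differed by −0.40 in soc1-101D (limma adjusted p = 0.601). Both dehydrin genes thus had their highest array in Col of experiment 2, as RAB18 did.

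AT3G02480, which encodes a LEA protein, read 21.5, 897 and 175 in Col, 66.0, 138 and 186 in soc1-101D, and 496 on soc1-2. It rose by 2.69 from experiment 1 to 2 (limma adjusted p = 0.0229), and its soc1-101D differences of 1.06, −2.54 and 0.08 had no common sign (limma adjusted p = 0.838). It was the single tested gene of these lists past 2-fold on the soc1-2 array, at 1.41. The dim genes LEA4-5 and LEA18, left out by the filter, were at 1.32 and 2.46 there, from Col signals of 21.8 and 4.48 in experiment 3. The dim LEA gene AT2G21490 was at −0.07. AT3G02480, LEA4-5, LEA18 and AT2G21490 also had their highest signal in Col of experiment 2, as did 15.1% of all tested probe sets. That share covers tested probe sets only, and of these genes only AT3G02480 is among them.

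The 2 other linker histone genes parted from HIS1-3 in experiment 3. From experiment 1 to 2 both rose, as HIS1-3 did, by smaller log2 differences. The rise was 0.595 for H1.1 (limma adjusted p = 0.0371) and 0.501 for H1.2 (limma adjusted p = 0.0622, not called). Over all tested probe sets, 16.6% were called higher in that comparison. H1.1 (AT1G06760) read 1524, 2500 and 3270 in Col and 1888, 2646 and 3990 in soc1-101D, and H1.2 (AT2G30620) 1724, 2525 and 3806 in Col and 1808, 2489 and 4282 in soc1-101D. Both were highest in experiment 3, where HIS1-3 was lowest, and both differed between experiments (limma F, adjusted p = 0.00639 and 0.00432). Their soc1-101D differences were 0.22 and 0.07 (limma adjusted p = 0.643 and 0.916), and on soc1-2 they were at −0.05 and 0.02.

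Of 16 other SWEET sugar transporter genes, 15 had a named probe set and 6 were tested. None of the 6 was called in soc1-101D, where 0.542% of all tested probe sets were. From experiment 1 to 2, 3 of the 6 fell, SWEET1, SWEET2 and SWEET11, against 16.0% of all tested probe sets. SWEET2, whose product lies in the vacuole membrane, read 1948, 146 and 148 in Col and 947, 168 and 74.9 in soc1-101D, and fell by 2.97 on the log2 scale (limma adjusted p = 0.000549). SWEET1, a glucose transporter gene, fell by 2.3 (limma adjusted p = 0.000885) and the sucrose transporter gene SWEET11 by 1.31 (limma adjusted p = 0.00185). These 3 were highest in experiment 1, like SAG29, but only SAG29 and SWEET2 had their lowest array in soc1-101D of experiment 3. SWEET13 and SWEET16 differed between experiments (limma F, adjusted p = 0.00077 and 0.0178), with no call from experiment 1 to 2.

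In soc1-101D the SWEET differences with the smallest p were 0.43 for SWEET13, −0.39 for SWEET16, −0.56 for SWEET2 and −0.30 for SWEET17 (limma adjusted p between 0.42 and 0.514). Past 2-fold on soc1-2 were the dim, untested SWEET6 (−1.21), SWEET10 (1.37) and SWEET14 (1.15). Their Col signals of experiment 3 were 36.3, 3.95 and 4.48, the last 2 under the pseudocount. The soc1-2 signal of SWEET6 was 4.68, also under the pseudocount. Of 8 senescence markers 2 had a named probe set, and the 1 tested, SAG101, differed by −0.35 in soc1-101D (limma adjusted p = 0.761) and by 1.1 from experiment 1 to 2 (limma adjusted p = 0.0606). WRKY53, a dim and untested senescence regulator gene, was at 0.62 ± 0.93 (SD, 3 pairs) in soc1-101D. Its differences of 1.30, 1.00 and −0.44 in experiments 1, 2 and 3 had no common sign. Over all lists, markers included, 0 of 18 tested probe sets were called in soc1-101D with limma, against 0.542% of all tested probe sets. An unadjusted p under 0.05 was found for 4 of the 18 and for 11% of all tested probe sets (1504).

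**Figure D4:**
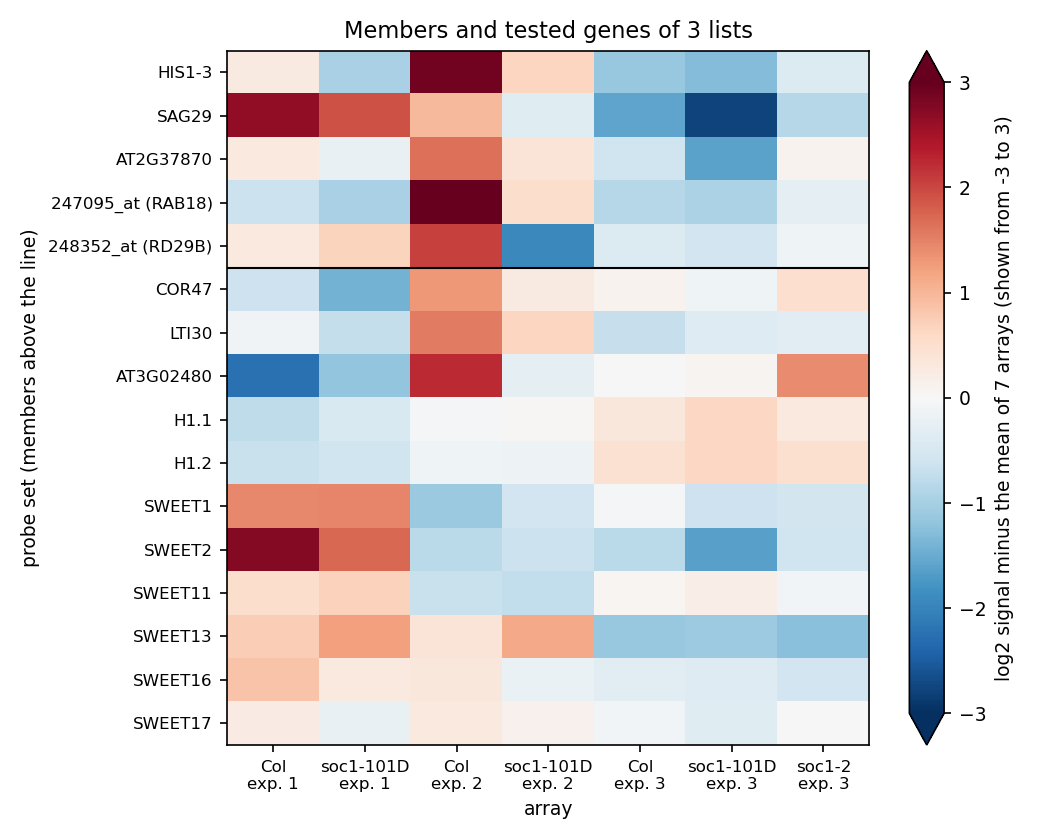
Log2 signal minus the mean of the 7 arrays (colour, shown from −3 to 3) for the 5 genes above the line and the tested genes of the ABA response, linker histone and SWEET lists below it; columns are arrays. The column of Col in experiment 2 is high for HIS1-3, RAB18, COR47, LTI30 and AT3G02480, and the columns of experiment 1 are high for SAG29, SWEET1 and SWEET2.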

How the data were processed

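The authors' deposited table held linear intensity values, 1 for each probe set on each array. The software behind them was not given in the sources used here. Between arrays, the 2% trimmed means of the deposited intensity differed little, from 495.46 to 496.24. Arrays were scaled to 1 median, the pseudocount was added and log2 was taken. The dimmest 40% of probe sets by mean log2 were left out, which left 13648. Limma 3.58.1 in R 4.3.3 (lmFit, eBayes) fitted genotype and experiment number as fixed terms, with Benjamini-Hochberg adjustment over the tested probe sets; 2 residual degrees of freedom remained and the prior added 5.62. The experiment was kept as a block because the labels' descriptions take Col from that experiment as baseline. Deviations from the group means correlated at r = 0.849, 0.739 and 0.821 within experiments 1, 2 and 3. Gene names came from the platform table (13513 probe sets with 1 gene, 503 with several, 8730 with none), updated through RefSeq genes of TAIR10.1. No build is named for the arrays, so no positions are given. The steps were tested on simulated data. The members, lists and tests were chosen with earlier results of these data known. Named genes were all members, and of each list those called in soc1-101D, up to 4 by the smallest p there and between experiments, and those past 2-fold in soc1-2, plus the 3 most like each member.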

Additional observations from a re-analysis of the deposited data

How the results depend on the processing

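With 3 arrays in a group, 1 soc1-2 array and 2 residual degrees of freedom, limma's variance leans on its prior, and signals under the pseudocount of 19.3 carry no reliable fold. Over all probe sets, the 7044 that differed between experiments became 2317 with no filter on dim probe sets and 4353 to 7189 with each array left out in turn, lowest without Col of experiment 3. The 4452 called between experiments 2 and 1 became 1978 with no filter. With each Col or soc1-101D array left out in turn they became 2595 to 3942, with 2595 without Col and 2844 without soc1-101D of experiment 1. The 74 called in soc1-101D became 19 with quantile normalization, 49 and 175 with pseudocounts of 0.02 and 0.5 times the median, and 26 to 129 with an experiment left out (26 without experiment 1, 129 without experiment 3). Limma called 0 with no filter (1714 at an unadjusted p under 0.05), 0 with the lowest 20% left out (1637) and 0 with no replicate block (222, against 1504 in the paired fit). The 111 past 2-fold in soc1-2 became 64 with the larger pseudocount and 932 with no filter. The soc1-101D difference of SAG29 was −1.42 and −0.695 with the smaller and larger pseudocount, and its soc1-2 difference 0.36 with the larger. RD29B ranged from −2.08 to 0.11 with an experiment left out and turned positive without experiment 2. Without the genotype term, the rise from experiment 1 to 2 missed the threshold for HIS1-3 (limma adjusted p = 0.0541) and AT2G37870 (0.224), and with the lowest 20% left out for AT2G37870 (0.0542) and RAB18 (0.0532). The cause of these changes was not tested. Of the alternatives, 136 left a value on the same side of the threshold, within its spread or, for a count of probe sets, of similar size. Another 28 moved it or moved it across the threshold, and 1 reversed it. Leaving out soc1-2 could not change the comparisons between experiments, and those alternatives are among the 136.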

Other observations

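Of the 20 protein-coding genes within 2 places of the 5 genes on either side, by order in the RefSeq table, 8 had a named probe set, and 6 of their 9 probe sets were tested. In soc1-101D the limma adjusted p of the 6 lay between 0.451 and 0.978. AT5G66390, next to RAB18, rose by 1.47 from experiment 1 to 2 (limma adjusted p = 0.00127) and was at 0.02 in soc1-101D. AT2G37880, next to AT2G37870 and too dim to be tested, was at −1.23 ± 0.62 (SD, 3 pairs) in soc1-101D and −0.27 in soc1-2. These neighbours were looked up with the values above already known.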
